A study of Mus musculus with 3 samples.

Results

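The peaks described here are all PATZ1 peaks that the deposited lists place on mouse chromosome 15: 26736 of the 315100 peaks of day 0 and 44064 of the 852421 peaks of day 5. They were selected by chromosome alone, and chromosome 15 was selected because it has the highest peak density on both days, so its density is a description and not a finding. The study used chromatin immunoprecipitation and sequencing (ChIP-seq), which recovers and reads the DNA bound to a chosen protein. The cells were 10T1/2, an established mouse mesenchymal line that can be turned into adipocytes, taken at day 0 and at day 5 of differentiation and precipitated with an antibody against PATZ1 from Santa Cruz. Each day has a single PATZ1 library, and 1 input (sheared chromatin without precipitation) is labelled for both days. The labels name no inducing agent and no replicate culture.

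PATZ1 is a transcription factor with a BTB/POZ domain, through which such proteins pair with each other and recruit cofactors, an AT-hook and a row of C2H2 zinc fingers that contact GC-rich DNA. It is known as both an activator and a repressor, and in developing T cells, where it is also called MAZR, for its part in silencing Cd8 genes. A peak is a stretch in which more reads pile up than a local background predicts. Peak lists called at loose limits hold a few tall sites and a large number of shallow ones.

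With 1 library per day, differences between the days or between chromosomes have no replicate check, and no test was made. Intervals below are 95% intervals that cover counting error only. The lists differ in their limits: the narrowest peak was 228 bp at day 0 and 56 bp at day 5, and the weakest −log10 p was 1.005 and 1.303. Counts and widths are therefore compared within a day, between chromosomes or windows. The fold and the −log10 p and q are the authors' values for each peak; q is the p-value adjusted for the number of places looked at. ChIP-seq peaks hold no expression values, so the cell type could not be checked against markers. Positions are read as mm9, the named build whose chromosome lengths hold all peaks. Genes and sequences at the peaks were not analysed here.

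Chromosome 15 carried 8.48% of the day 0 list and 5.17% of the day 5 list on 4.19% of the length of the autosomes. At day 0 it had 258.3 peaks per Mb (Poisson interval 255.2 to 261.5), against 120.5 on the other 18 autosomes together, a ratio of 2.14 (2.12 to 2.17). Chromosome 13 was next with 238.8 per Mb (236.0 to 241.6), and chromosome 10 was lowest with 49.3. At day 5 chromosome 15 had 425.8 peaks per Mb (421.8 to 429.8), against 319.6 on the others, a ratio of 1.33 (1.32 to 1.34). Here chromosome 10, the sparsest at day 0, was next with 417.5 per Mb (413.98 to 421.02), and chromosome 7 was lowest with 152.3. At day 0 the lead of chromosome 15 was larger among better supported peaks: the ratio was 3.86 where q was at most 0.05. With a −log10 p of at least 3 the ratios were 2.65 at day 0 and 1.72 at day 5. With a day 5 −log10 p of at least 5, chromosome 15 had 2.87 peaks per Mb and chromosome 3, the next, 2.58. That was 0.674% of the day 5 peaks of chromosome 15, close to 0.641% on the other autosomes. At a day 5 q of at most 0.05 there were 0 peaks on chromosome 15 and 10 on the others. All these subsets come from the lists whose density chose the chromosome.

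**Figure D1:**
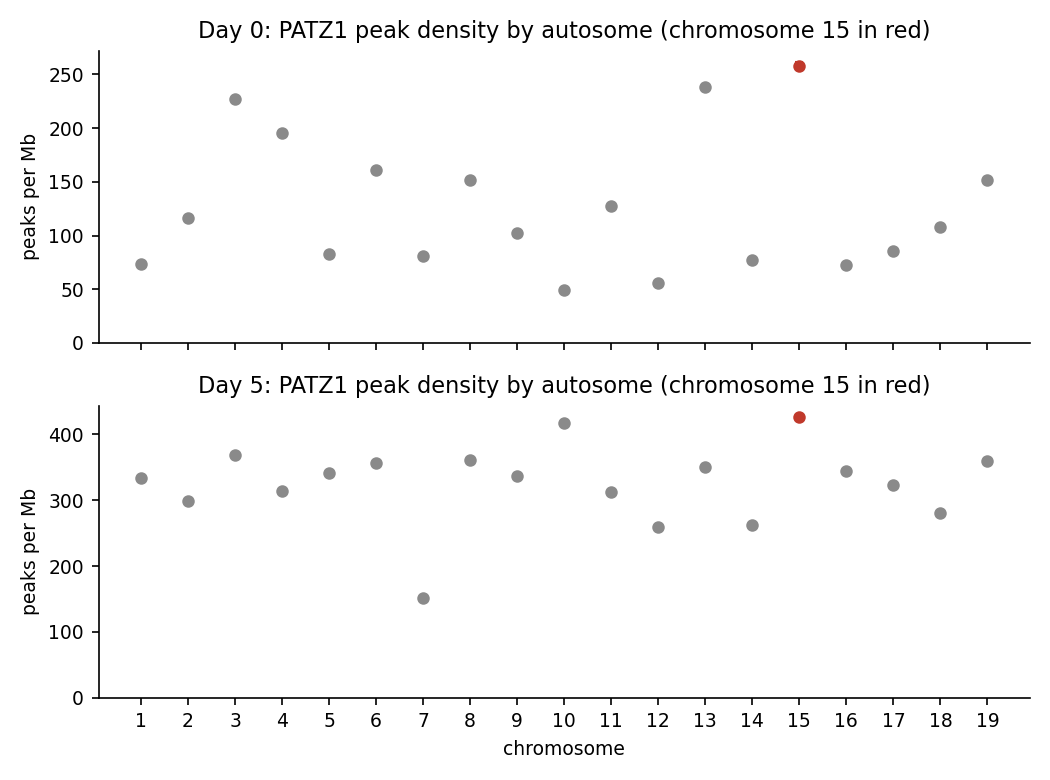
Peaks per Mb on each of the 19 autosomes at day 0 (top) and day 5 (bottom); bars are Poisson intervals and mostly lie inside the points. Chromosome 15 (red) is highest in both panels, with 258.3 and 425.8 peaks per Mb, and chromosome 10 goes from lowest at day 0 to second at day 5.

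The local background, the number of reads the caller predicted at a summit, was also highest on chromosome 15. It was solved, with the pile-up, from each peak's deposited fold and −log10 p. The mean background at day 0 summits was 3.96 reads on chromosome 15 and 2.39 to 3.41 on the other autosomes, and at day 5 it was 0.911 against 0.545 to 0.842. Of the day 0 peaks on chromosome 15, 791 lay at the lowest background in the list (2.96%, Wilson interval 2.76 to 3.17), where over chromosomes 1 to 19 the share was 20.7%. At day 5 there were 1385 such peaks (3.14%, 2.98 to 3.31), beside 21.0% over chromosomes 1 to 19. The median day 0 summit of chromosome 15 held 9 reads over a background of 3.63, against 7 reads over 2.54 on the other autosomes, and the median fold, which the authors deposited, was lower there (2.18 against 2.28). Pile-up and background were thus both high on chromosome 15, and the part of the background in its peak density was not tested.

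**Figure D2:**
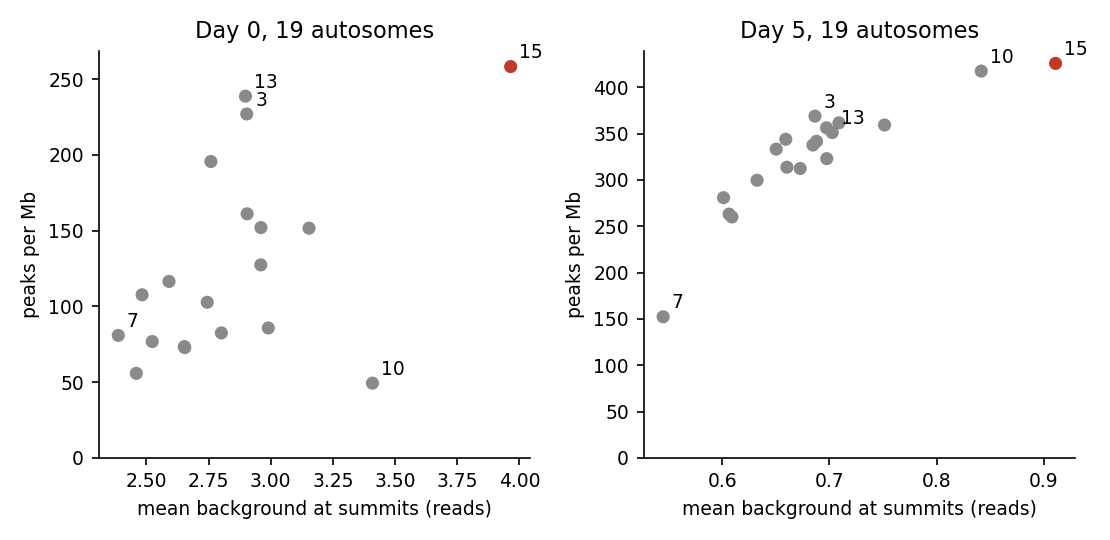
Peaks per Mb against the mean background at summits, in reads, for the 19 autosomes at day 0 (left) and day 5 (right), with chromosome 15 in red. Chromosome 15 lies at the upper right of both panels, at 3.96 reads and 258.3 peaks per Mb at day 0 and at 0.911 reads and 425.8 peaks per Mb at day 5; at day 0 chromosome 10 combines the next highest background with the lowest density.

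Across the 19 autosomes, which share 1 PATZ1 library within a day, day 5 density rose with the mean background (Pearson r 0.878, Spearman rho 0.882). At day 0 the relation was looser (r 0.506, rho 0.437), and without chromosome 15 it was r 0.242. These values are descriptions over chromosomes and not a test.

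Along the chromosome, window counts varied less, relative to their mean, than on any other autosome. In the 100 full 1-Mb windows from 3000001, day 0 counts ran from 128 to 470 with a median of 258.5, and day 5 counts from 230 to 559 with a median of 438. The coefficient of variation of day 0 windows was 27.9%, the lowest of 19 autosomes (32.7% on chromosome 19 to 102.2% on chromosome 7). At day 5 it was 15.3%, also the lowest, close to chromosome 10 with 15.4%. Poisson counting alone gives 6.13% and 4.77% at the mean counts of chromosome 15, and less on a dense chromosome than on a sparse one. The lowest day 0 window of chromosome 15 held 128 peaks, whereas the lowest window of each other autosome held at most 60. All 100 windows of chromosome 15 lay above the median window of the other autosomes at day 0, which held 109 peaks, and 94 of them did so at day 5, where that median was 345. Of the 2306 windows of the other autosomes, 178 (7.72%) reached the median of chromosome 15 at day 0 and 173 (7.50%) at day 5.

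The densest day 0 windows were 23000001 to 24000000 with 470 peaks (428 to 514), 22000001 to 23000000 with 453 (412 to 497) and 64000001 to 65000000 with 431 (391 to 474). The sparsest were 61000001 to 62000000 with 128 (107 to 152), 9000001 to 10000000 with 130 (109 to 154) and 68000001 to 69000000 with 143 (121 to 168). The first pair of dense windows belongs to a run of 6 windows above the median, from 20000001 to 26000000, with a mean of 371.3 peaks. The longest runs were 10 windows above the median from 31000001 to 41000000, with a mean of 289.6, and 10 below it from 88000001 to 98000000, with a mean of 193.3. At day 5 the densest windows started at 48000001 with 559 peaks, and at 22000001 and 92000001 with 558 each. The sparsest started at 77000001 with 230, at 82000001 with 309 and at 76000001 with 326. These last 3 lie inside the longest day 5 run below the median, 14 windows from 72000001 to 86000000 with a mean of 360.9.

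In 5-Mb windows, the 19 full ones from 5000001 to 100000000 held 895 to 1899 day 0 peaks, with a median of 1338, and 1584 to 2753 day 5 peaks, with a median of 2215. The day 0 counts, in order along the chromosome, were 1508, 1197, 1257, 1899 and 1288 up to 30000000. They went on with 1350, 1456, 1351, 1210 and 1539 up to 55000000, and with 1135, 1231, 990, 1511 and 1608 up to 80000000. The last full windows held 1544, 1338, 895 and 1087. The highest window starts at 20000001 and the lowest at 90000001.

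The day 5 counts in the same order were 2158, 2215, 2474, 2753 and 2324 up to 30000000. They went on with 2117, 2054, 2290, 2573 and 2238 up to 55000000, and with 1996, 2170, 2262, 2216 and 1584 up to 80000000. The last full windows held 1935, 2202, 2523 and 1982. The partial windows at the ends held 432 and 817 peaks before 5000000 and 910 and 1181 after 100000000, at day 0 and day 5. Both days had their maximum in the window from 20000001. The window from 75000001 was the lowest of day 5 and the second highest of day 0. The window from 90000001 was the lowest of day 0 and the third highest of day 5.

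**Figure D3:**
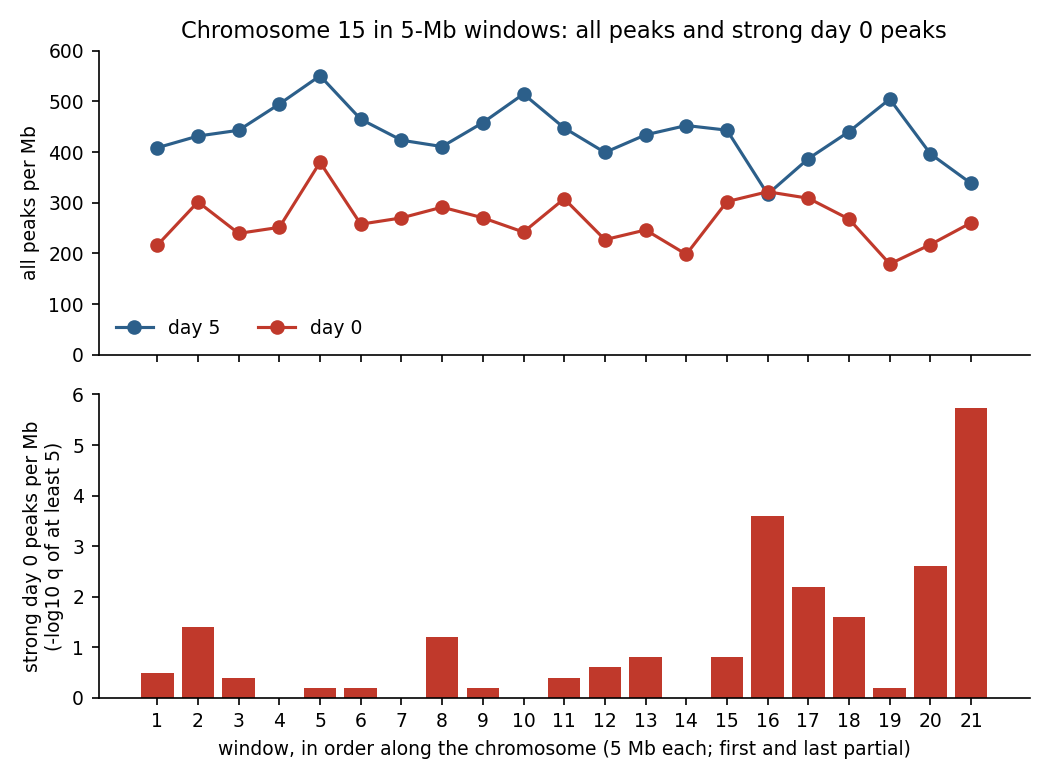
Chromosome 15 in 21 consecutive 5-Mb windows, with partial windows first and last counted per Mb past the first 3 Mb: all day 0 (red) and day 5 (blue) peaks per Mb above, and day 0 peaks with a −log10 q of at least 5 per Mb below. Day 0 is highest in the window from 20000001 and lowest in that from 90000001, day 5 dips at that from 75000001, and 75 of the 103 strong peaks lie beyond 70000000.

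The steps in density were small. Each boundary was picked as the one with the largest change. The intervals of the ratios cover counting error only, and neither this search nor the spread between windows, which exceeded Poisson counting. With at least 20 Mb on either side, the boundary with the largest change in day 0 density was 80000000, with 272.2 peaks per Mb before and 245.8 after it, a ratio of 0.903 (0.877 to 0.930). That is a step of 1.11 times, the smallest of the 19 autosomes, whose largest steps ran from 1.12 on chromosome 6 to 3.003 on chromosome 12. At day 5 the boundary was 75000000, with 453.6 per Mb before and 400.3 after it, a ratio of 0.883 (0.864 to 0.902). This step of 1.13 times was the 13th of 19, within a range of 1.06 on chromosome 6 to 2.42 on chromosome 7. With sides of at least 10 Mb the day 0 boundary moved to 90000000, with 274.1 peaks per Mb before and 214.3 after it. At the day 5 boundary the day 0 ratio was 0.964, and at the day 0 boundary the day 5 ratio was 0.940, so both lists were somewhat sparser on the far side. The share of peaks at the lowest background fell there too, at the day 0 boundary from 3.59% to 0.658% at day 0 and from 3.87% to 0.611% at day 5. Between neighbouring full windows the largest day 0 changes were at 70000000, from 990 to 1511 peaks, a ratio of 1.53, and at 20000000, from 1257 to 1899, a ratio of 1.51. The sharpest falls were at 90000000 (0.669) and 25000000 (0.678). The largest day 5 change was the fall at 75000000, from 2216 to 1584, a ratio of 0.715.

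Day 0 and day 5 density did not rise together along chromosome 15. Over the 19 full 5-Mb windows Pearson's r was -0.06 and Spearman's rho -0.17, and over the 100 windows of 1 Mb they were -0.04 and -0.10. All windows share the 2 libraries, and whether both lists share a control is not stated in the labels. Day 5 density was low where the background was high: r was -0.91 (rho -0.90) over the 5-Mb windows, the opposite sign to that across chromosomes. For day 0 the same r was 0.04 (rho 0.24). Day 5 density was also low where strong day 0 peaks were frequent, with r -0.78 (rho -0.76) over the 5-Mb windows. Over the 1-Mb windows this relation was weaker, with r -0.47 (rho -0.51). The strong day 0 peaks lay at high background. What part the background has in either relation was not tested.

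Day 0 peaks with a −log10 q of at least 5 lay mostly towards the far end. Of the day 0 peaks on chromosome 15, 942 had a q of at most 0.05 (3.52%, 3.31 to 3.75), beside 2.09% over chromosomes 1 to 19. A −log10 q of at least 5 was reached by 103 (0.385%, 0.318 to 0.467), beside 0.257%, a share that ranks 5th of the 19 autosomes. The median one of the 103 was 872 bp wide and held 42 reads over a background of 8.16. For the 698 on the other autosomes these medians were 618.5 bp, 33 reads and 5.46. Of the 103 on chromosome 15, 12 lay between 3000001 and 35000000, 16 between 35000001 and 70000000, and 75 from 70000001 to the last peak end, or 2.24 per Mb. The 942 peaks with a q of at most 0.05 were less uneven, with 264, 265 and 413 in these stretches. All day 0 peaks had nearly equal densities in these stretches, with 279.1, 254.6 and 265.5 per Mb. The mean day 0 background rose over them from 3.39 to 3.87 and 4.64 reads. The last stretch, of 33.5 Mb, held 72.8% of the strong peaks and 33.3% of all day 0 peaks of the chromosome, a ratio of 2.19. Stretches of the same length at the end of chromosomes 12, 5 and 4 had ratios of 2.71, 2.19 and 2.19. They rest on 5 of 16, 25 of 45 and 40 of 66 strong peaks. Chromosome 3 had the lowest with 0.461, from 6 of 57. These ratios have no intervals.

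The 10 day 0 peaks of chromosome 15 with the highest −log10 p had pile-ups from 57 to 219 reads and authors' folds from 5.61 to 32.6. The strongest, from 52759810 to 52760587, held 150 reads, where 3.63 were predicted. Another, from 102023002 to 102024331, held 166 reads over 5.58, and the one from 81702008 to 81702828 held 219 reads over 19.9, the highest background of the 10. Peaks from 85430560 to 85431773 and from 102087413 to 102088906 held 126 and 137 reads. The only other one before 70000000 lay from 11959945 to 11960372, with 57 reads over 3.63 in a width of 428 bp. Peaks from 78675067 to 78676291 and from 78686009 to 78686463 held 106 and 82 reads. The other two started at 102236534 with 102 reads and at 94419947 with 86 reads. Day 5 peaks overlapped 2 of the 10, those starting at 52759810 and 94419947, with at most 5 and 6 reads.

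Taking summits within 50 kb of the next as a group, 37 of the 103 peaks with a −log10 q of at least 5 fell into 15 groups. The largest, of 4 peaks with 57 to 166 reads, spanned 65905 bp from 102023002 to 102088906. Groups of 3 lay at 76020392 to 76037395, at 78664627 to 78686463, at 81641821 to 81702828, at 85483748 to 85517792 and at 98439402 to 98506645. All groups of 3 or more thus lay beyond 70000000. The median distance between neighbouring strong peaks was 218996 bp, and the largest was 11334717 bp.

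Day 0 peaks of chromosome 15 were the widest of the autosomes. Their median width was 301 bp, against 275 bp on the other autosomes together and 261 to 290 bp on each of them. Median width rose with day 0 density, for which chromosome 15 was selected, across the 19 autosomes (r 0.969, rho 0.938). Without chromosome 15 that r was 0.966. The next densest, chromosomes 13 and 3, had medians of 290 and 287 bp. A width of at least 500 bp was found in 3606 day 0 peaks of chromosome 15 (13.5%, 13.1 to 13.9), beside 8.35% over chromosomes 1 to 19. Chromosomes 13 and 3 had 11.4% and 10.5%. At least 1000 bp was reached by 260 (0.972%, 0.862 to 1.10), beside 0.391%, and at least 2000 bp by 14 (0.0524%, 0.0312 to 0.0879), beside 0.00865%. Only 27 autosomal peaks were that wide in all, so 13 lay elsewhere, 4 of them on chromosome 3 and 3 on chromosome 4. Of the 20 widest peaks of the whole day 0 list 11 were on chromosome 15, and of the 100 widest 29 were. Day 5 peaks were also widest there, with a median of 68 bp against 56 to 67 bp on the other autosomes. Of the day 5 peaks of chromosome 15, 638 reached 200 bp (1.45%, 1.34 to 1.56), beside 0.802% over chromosomes 1 to 19. Median width rose with density across the 19 autosomes at day 5 too (r 0.787, rho 0.954).

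**Figure D4:**
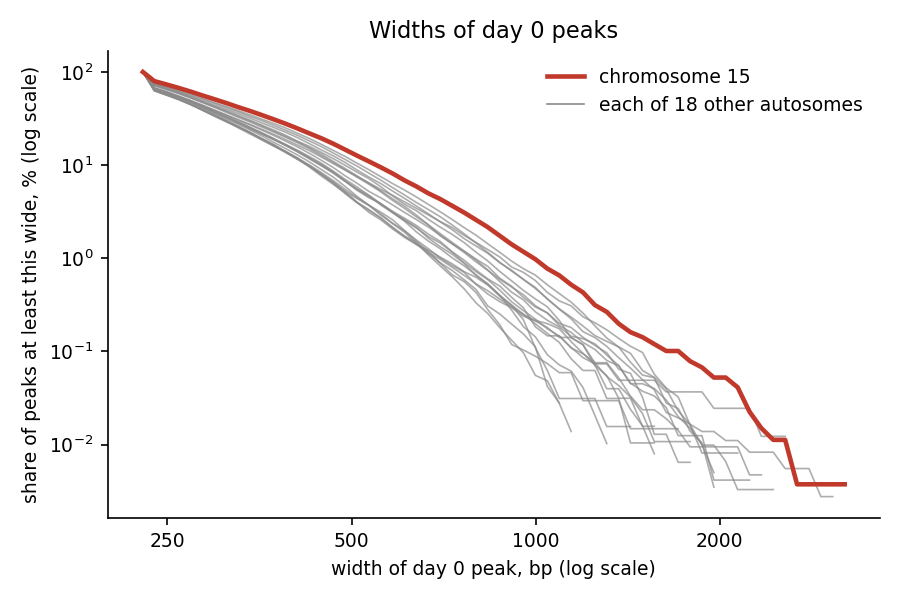
Share of day 0 peaks at least as wide as the value on the x axis (both axes log), for chromosome 15 (red) and each of the 18 other autosomes (grey). The red curve lies above all others at 500 bp, where it stands at 13.5%, and at 1000 bp, where it stands at 0.972%.

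At an equal pile-up, median widths were close, with those of chromosome 15 slightly larger for 6 reads and slightly smaller for 8 to 12. With 6 reads the median was 255 bp on chromosome 15 and 251 bp on the other autosomes. It was 271 bp for 7 reads on chromosome 15 and on the other autosomes, 283 against 289 bp for 8 reads, and 295 against 306 bp for 9 reads. For 10, 11 and 12 reads it was 309 against 321 bp, 320 against 335.5 bp and 335 against 343 bp. Among peaks at the lowest background alone, those of chromosome 15 were wider, with 299 against 283 bp for 7 reads, 323.5 against 322 bp for 8 and 370.5 against 356 bp for 9. Weighting the other autosomes to the pile-ups of chromosome 15, a step chosen after seeing the data, gave 14.3% of peaks of at least 500 bp and 1.05% of at least 1000 bp, against 13.5% and 0.972% observed. For the widest class the weighted value was 3.82 peaks of at least 2000 bp, against 14 observed. Peaks with 30 or more reads were at least 1000 bp wide in 24.6% of cases on chromosome 15 (35 of 142, 18.3 to 32.3) and in 13.8% on the other autosomes (84 of 608, 11.3 to 16.8). The share was also higher on chromosome 15 with 20 to 29 reads, at 10.8% (8.03 to 14.3) against 6.29% (5.16 to 7.65), and with 6 to 8 reads, at 0.152% (0.0909 to 0.256) against 0.0729% (0.0616 to 0.0863). With 12 to 14 reads it was lower there, with 1.30% (1.001 to 1.70) against 2.22% (1.93 to 2.55). With 9 to 11 and 15 to 19 reads it was 0.548% against 0.586% and 4.14% against 4.37%. Along chromosome 15, 1-Mb windows with more day 0 peaks had wider ones (r 0.667, rho 0.680 over 100 windows) and more of at least 1000 bp (r 0.655, rho 0.652).

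The 10 widest and the 10 of highest −log10 p had 0 peaks in common, but wide peaks were more often well supported than day 0 peaks at large. The widest day 0 peak of the whole list lay on chromosome 15 from 101198584 to 101201816. It was 3233 bp wide but held only 23 reads at its summit over a background of 9.30, a fold of 2.33, and its −log10 q was 0.947. The next were 2658 bp at 97660272 to 97662929 with 36 reads, 2644 bp at 85404170 to 85406813 with 51 reads, and 2423 bp at 78309957 to 78312379 with 20 reads. That of 2644 bp had a fold of 9.40, the highest of the 10. A peak of 2258 bp from 82104775 to 82107032 had the weakest support, with 15 reads, a fold of 2.18 and a −log10 q of 0.298. The other five were 2184 to 2243 bp wide and started at 5487184, 25343291, 102077364, 61950178 and 38381602, with 12, 30, 57, 24 and 31 reads. Among the 10 widest, q was at most 0.05 in 7, and −log10 q reached 5 in 5. Among the 100 widest these counts were 48 and 18, beside 3.52% and 0.385% of all day 0 peaks of chromosome 15. A day 5 peak overlapped 9 of the 10 widest, the exception being that of 3233 bp, with at most 8 reads in any. On the other autosomes, 76.9% (49.7 to 91.8) of the 13 peaks of at least 2000 bp overlapped a day 5 peak, so such overlap was common at this width.

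The 100 widest day 0 peaks of chromosome 15 measured 1223 to 3233 bp (median 1382 bp) and held a median of 17 reads. The 100th widest peak measured 622 to 1139 bp on the other autosomes. Their places were uneven: 22 lay up to 35000000, 21 from there to 70000000 and 57 beyond it, with 17 in the 5-Mb window from 75000001, 11 in that from 85000001 and 0 in those from 15000001 and 90000001.

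Neighbouring summits among these 100 were 1359 to 9490999 bp apart, with a median of 302923 bp and a mean of 985092 bp. The median was 30.8% of the mean, inside the range of 11.3% to 44.4% for the 100 widest peaks of the other autosomes. Of the 99 gaps, 7 were under 10 kb, 23 were under 50 kb and 9 were over 3 Mb. On the other autosomes 9 to 25 gaps were under 50 kb, and the median gap ran from 170627 to 817542 bp, longest on chromosome 1, the longest chromosome. The spacing on chromosome 15 thus lay within the range of the other autosomes, while the widths lay above it.

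The closest pair, 1359 bp apart, was the peak from 79890782 to 79892111 and the one from 79892197 to 79893593, 1330 and 1397 bp wide. These belong to a group of 4 wide peaks with 17 to 21 reads over 51655 bp from 79841939. The next closest pairs lay 2496 bp apart, from 78309957 to 78315188, and 2505 bp apart, from 66722585 to 66725965. The largest gaps were 9490999 bp between the peak ending at 12048646 and the one starting at 21537241, then 8627222 bp after the peak from 88970581, and 6351802 bp after that from 66724549. Day 0 peaks of other widths filled these gaps at 252.8, 184.2 and 203.7 per Mb, the first close to and the others below the 258.3 of the whole chromosome. The longest distance between neighbouring day 0 summits of any width on chromosome 15 was 122724 bp, from 63642840 to 63765564. The longest between neighbouring day 5 summits was 71657 bp. These distances leave out the first 3 Mb, which held no peaks on either day.

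**Figure D5:**
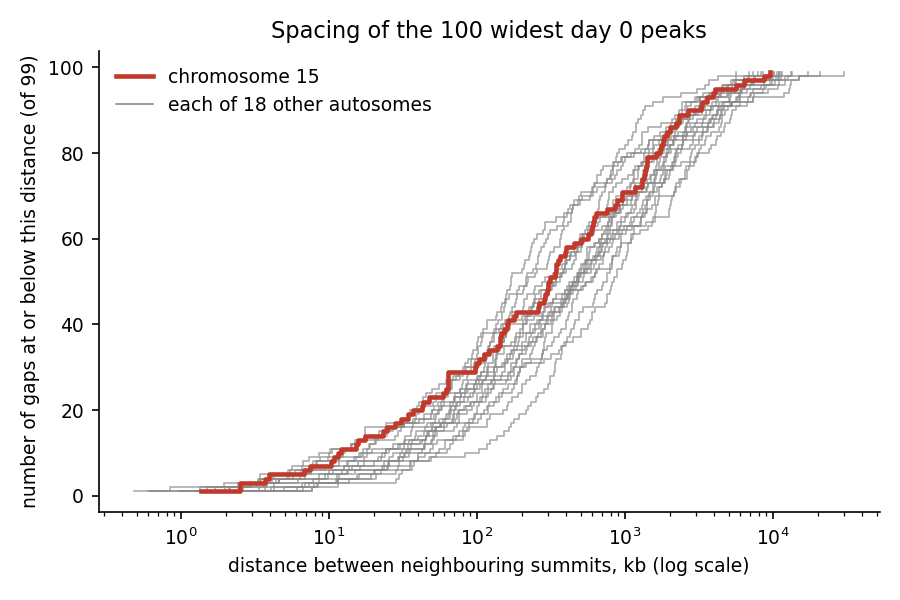
Number of the 99 gaps between neighbouring summits of the 100 widest day 0 peaks at or below the distance on the x axis (kb, log scale), for chromosome 15 (red) and each of the 18 other autosomes (grey). The red curve runs among the grey ones, with 23 gaps under 50 kb and a median of 302923 bp.

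A day 5 peak shared at least 1 bp with 7664 of the day 0 peaks on chromosome 15 (28.7%, 28.1 to 29.2), beside 22.0% over chromosomes 1 to 19. Chromosome 10, next in day 5 density, also had 28.7%. Conversely, 8601 of the day 5 peaks of chromosome 15 overlapped a day 0 peak (19.5%, 19.2 to 19.9). That share was 9.30% over chromosomes 1 to 19 and lowest on chromosome 10, with 3.69%. Day 5 peaks covered 3.51% of chromosome 15 and 2.46% of the other autosomes, and day 0 peaks covered 9.20% and 3.85%. The part of this coverage in the overlap was not tested. In peaks of 300 to 399 bp the share was 29.3% on chromosome 15 (28.2 to 30.4) and 22.6% on the others (22.3 to 23.0). In peaks of 1000 to 1499 bp it was 57.8% (51.3 to 64.1) against 56.3% (53.0 to 59.6). With summits within 100 bp of each other it was 14.7% against 11.4%.

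Among better supported peaks the order depended on the limit. With a q of at most 0.05, 38.0% of the 942 day 0 peaks on chromosome 15 (34.96 to 41.1) and 31.5% on the other autosomes (30.3 to 32.7) overlapped a day 5 peak. Of the 103 day 0 peaks with a −log10 q of at least 5, 30 overlapped a day 5 peak (29.1%, 21.2 to 38.5), against 36.8% (33.3 to 40.5) of the 698 on the other autosomes. At a −log10 q of at least 20 it was 7 of 22 (31.8%, 16.4 to 52.7) against 58 of 120 (48.3%, 39.6 to 57.2). The intervals of chromosome 15 and the other autosomes overlap at both of these stricter limits. Of the 100 widest day 0 peaks of chromosome 15, all at least 1223 bp wide, 56 overlapped a day 5 peak. The share on the other autosomes rose with width, from 56.3% for peaks of 1000 to 1499 bp. From 1500 to below 2000 bp it was 47.8% of 23 on chromosome 15 (29.2 to 67.0) against 67.4% of 89 (57.1 to 76.3), with overlapping intervals. From 2000 bp it was 78.6% of 14 against 76.9% of 13. No share matched to the widths of the 100 was computed.

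No day 5 peak of chromosome 15 had a q of at most 0.05, and the highest −log10 q was 0.688. Such peaks were rare throughout, with 10 of 801169 over chromosomes 1 to 19 (0.00125%), and 0 of 44064 allows a share of up to 0.00681%. A −log10 p of at least 5 was reached by 297 (0.674%, 0.602 to 0.755), close to 0.643% over chromosomes 1 to 19. The 5 highest started at 60631031, 25786559, 51708584, 23527821 and 93821271, with 7, 9, 12, 8 and 8 reads and folds from 4.77 to 5.51. They were 71 to 122 bp wide, and the one at 23527821 overlapped a day 0 peak, which held 10 reads. The 5 widest day 5 peaks, of 374 to 420 bp, started at 52290115, 48080964, 27177553, 37462032 and 91292329. They held 4 to 6 reads, and 2 of them overlapped a day 0 peak, of 13 and 8 reads.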

How the data were processed

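The authors deposited 1 peak list and 1 summit list per day. The submitters' processing notes name Bowtie2, HOMER, mm9, mm10 and GRCm38, with no roles; no caller is named there. On 9 of 19 autosomes a peak ends past the mm10 length, and on 0 past that of mm9, so positions are read as mm9. The reference tables at hand are of GRCm38, so genes and sequences were not analysed here.

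The deposited score is 10 times −log10 p, rounded down, in all but 1 peak. The deposited fold, a ratio, was read as (pile-up + 1) / (background + 1). Together with the deposited −log10 p as a Poisson tail it gave a whole pile-up (relative tolerance 0.0001) for all but 1 peak, and for all of chromosome 15. The solution was tested on simulated data built with these same formulas. That checks the solving, and not whether the caller used them. The lowest background is the smallest solved value of a list. Deposited summit positions matched the peak lists.

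Density is peaks per Mb up to the last peak end of either list; windows count summits, and steps leave out the first 3 Mb. Shares have Wilson intervals and counts exact Poisson intervals. Named were the 10 widest and 10 of highest −log10 p at day 0, 5 of each at day 5, the 3 densest and 3 sparsest 1-Mb windows, the largest steps, and the 3 closest and 3 widest gaps. Members, rules and limits were chosen with earlier results of these data known. The stretches of the chromosome, its runs of windows, the ends of other chromosomes, the weighting by pile-up and overlap by width were chosen after seeing the data. The reads per library were not used here. Per-sample columns left unused: 0. Tools were Python 3.11.15, with pandas 2.3.3, numpy 2.4.6, scipy 1.17.1 and matplotlib 3.10.9.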

Additional observations from a re-analysis of the deposited data

How the results depend on the processing

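There is 1 library per day, so none could be left out. No paired analysis was possible because each day has 1 library. Chromosome 15 stayed denser than the other autosomes in all alternative density ratios run. The day 0 ratio of 2.14 was 2.25 with a −log10 p of at least 2, 2.65 with at least 3, 3.86 with a q of at most 0.05, 2.46 against the median of the other autosomes and 2.63 without chromosomes 3, 4 and 13. The day 5 ratio of 1.33 was 1.43 and 1.72 at those p limits, 1.27 against the median and 1.36 without these chromosomes. No day 5 ratio was run at a q limit. At a q of at most 0.05 chromosome 15 had 0 day 5 peaks and the other autosomes 10. The day 0 step, a ratio of 0.903, was 0.870 with 1-Mb windows and 0.782 with sides of at least 10 Mb, at 90000000. The excess in median width of 26 bp was 28 bp with a −log10 p of at least 2, 54 bp with a q of at most 0.05 and 32 bp against the median. The share at least 500 bp wide was 50.2% among peaks with a q of at most 0.05; at limits of 400 and 750 bp it was 26.1% and 3.30%. Median spacing of 302923 bp for the 100 widest was 501216 bp for the 50 widest, 342153 bp with peaks within 10 kb counted once, 143112 bp for the 200 widest and 42657 bp for all of at least 750 bp. The share with a q of at most 0.05 became 1.35% and 0.385% at a −log10 q of at least 2 and 5, and 3.17% at a −log10 p of at least 5. Overlap was 1.05% at 50% reciprocal, 14.7% for summits within 100 bp, 38.0% for day 0 peaks with a q of at most 0.05 (31.5% on the other autosomes) and 20.8% with day 5 peaks of −log10 p at least 2. The median pile-up and background were 15 and 3.70 reads with a q of at most 0.05.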

Other observations

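At the lowest background of each list, the taller peaks of the 1 pair of pile-ups compared were relatively most frequent on chromosome 15, at day 5 only narrowly. Its 197 day 0 peaks of 7 reads stood beside 120 of 8 reads, a ratio of 0.609, where the other 18 autosomes had ratios from 0.292 to 0.479. At day 5 it had 754 peaks of 3 reads and 256 of 4, a ratio of 0.340, against 0.163 to 0.332 on the other autosomes. Chromosome 10, with 1185 and 393 such peaks, had the ratio of 0.332, close to that of chromosome 15. No intervals were computed for these ratios. These counts come from the same lists as the density that chose the chromosome, and are given as values.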
